A study of Mus musculus with 6 samples.

Results

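The D-type cyclins are the 3 genes Ccnd1, Ccnd2 and Ccnd3, followed here across the epithelial, stromal, muscle, endothelial and immune cells of the mouse uterine tube. They are 3 of the 50559 genes counted, they were chosen by name and with their levels across cell classes and regions already known, and all 3 were detected. Their levels by class and their differences between regions are therefore given as descriptions with no test. The data are single-cell RNA counts of adult female C57BL6 mice in estrus, with no genotype or treatment that differed between the groups, from 3 libraries of the proximal section (numbered 2, 3 and 4 in their titles) and 3 libraries of the distal section (numbered 1, 2 and 3). Each library pooled tissue of a group of mice, which was digested with enzymes, depleted of dead cells and captured in droplets, so no value belongs to 1 animal.

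D-type cyclins are the regulatory partners of the kinases Cdk4 and Cdk6. Growth signals raise their levels, and the complexes phosphorylate the retinoblastoma protein and its relatives, which releases E2F transcription factors and lets a cell pass from the G1 phase into DNA synthesis. Inhibitors of the INK4 and CIP/KIP families hold the kinases back. In many tissues Ccnd1 is known from epithelia, Ccnd2 from mesenchymal, granulosa and lymphoid cells, and Ccnd3 from lymphocytes and from cells that leave the cycle to differentiate.

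The proteins share 2 short elements that a reader can find in the coding sequence. Near the start stands a leucine-X-cysteine-X-glutamate motif that contacts the retinoblastoma protein, and near the end stands a threonine followed by a proline, whose phosphorylation marks D-type cyclins for breakdown. The first 60 coding bases of each gene, from the GRCm38 reference annotation, are shown because the motif differs between the members in its place and its codons; capitals mark its 5 codons.
Ccnd1: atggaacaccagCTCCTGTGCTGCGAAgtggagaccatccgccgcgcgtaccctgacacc
Ccnd2: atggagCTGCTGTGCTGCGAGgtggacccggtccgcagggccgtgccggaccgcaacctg
Ccnd3: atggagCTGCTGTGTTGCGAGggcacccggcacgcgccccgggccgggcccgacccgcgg
These stretches lie at chr7:144939634-144939693 on the minus strand for Ccnd1, chr6:127150714-127150773 on the minus strand for Ccnd2 and chr17:47593655-47593714 on the plus strand for Ccnd3. The last 45 coding bases before the stop codon follow, with the codons of the last threonine-proline pair in capitals.
Ccnd1: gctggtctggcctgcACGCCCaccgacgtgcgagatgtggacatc
Ccnd2: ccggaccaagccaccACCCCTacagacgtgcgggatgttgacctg
Ccnd3: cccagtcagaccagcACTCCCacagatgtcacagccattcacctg
They lie at chr7:144932610-144932654, chr6:127130338-127130382 and chr17:47598729-47598773. The coding sequences hold 888 bases (Ccnd1), 870 bases (Ccnd2) and 879 bases (Ccnd3). Over aligned bases, Ccnd1 and Ccnd2 were 67.5% identical, Ccnd1 and Ccnd3 63.1%, and Ccnd2 and Ccnd3 68.4%. Unique molecular identifiers (UMIs) each count 1 captured transcript. A processed copy of the third gene, Ccnd3-ps, had 18 UMIs, against 14553 for Ccnd3, 9216 for Ccnd1 and 9114 for Ccnd2. These totals cover all barcodes that passed the filters, including those later removed as doublets.

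The proximal libraries were small: they gave 824, 325 and 1133 cells (proximal 2, 3 and 4), against 6652, 4115 and 5417 cells in distal 1, 2 and 3. Over all deposited barcodes, before any were dropped, total UMIs ran from 426707 to 5633091 in proximal libraries and from 24175396 to 32488145 in distal libraries. Median UMIs per cell were 3371.5, 730 and 1082 in proximal 2, 3 and 4, against 3330.5, 4644 and 2934 in distal 1, 2 and 3. Any pair of libraries shared at most 44 cell barcodes, and at most 1.85% of the barcodes of the smaller library. Cells were clustered and each cluster was assigned to a class by marker genes, so a class name below stands for cells like that type. In each of the 7 classes compared between regions, most markers of its own list were detected in every library that entered. The exceptions to a complete list were Cldn4 in the non-ciliated epithelium of proximal 2, Actg2 in the smooth muscle of proximal 3, Trac in T and NK cells of distal 1 and distal 3, and 4 T-cell receptor genes (Cd3e, Cd3d, Cd3g, Trac) in T and NK cells of proximal 3. Clusters that met no class name held 828 cells and are not part of the class values. Levels (CPM) are the UMIs of a gene summed over the cells of a class within a library and scaled to the same total in every sum, given for at least 10 cells, and intervals are exact 95% Poisson intervals that cover counting error only. Because 3′ counts of different genes depend on how well each is captured, levels are compared between cells for 1 gene at a time.

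Ccnd1 was highest in epithelium, endothelium and myeloid cells. In non-ciliated epithelium it stood at 235 CPM (interval 199 to 276), 74.6 CPM (43.5 to 119) and 221 CPM (186 to 260) in proximal 2, 3 and 4, against 252, 184 and 257 CPM in distal 1, 2 and 3. Proximal 3 was low and the regions overlapped. In fibroblasts Ccnd1 was low, at 1.55, 21.4 and 23.7 CPM in proximal 2, 3 and 4 (4, 2 and 17 UMIs), against 4.18, 2.78 and 8.79 CPM in distal 1, 2 and 3. There 3 counts would be 1.16, 32.2 and 4.18 CPM in proximal 2, 3 and 4, and 0.392, 0.246 and 0.480 CPM in distal 1, 2 and 3. Only proximal 2 and 3 lay near or below that level. The order of class means in distal tissue put lymphatic endothelium first (264 CPM over 2 libraries whose values were 83.4 and 445 CPM), then non-ciliated epithelium (231 ± 41.0 CPM, SD, n = 3), blood endothelium (106 ± 12.8 CPM, n = 3), myeloid cells (94.5 CPM), ciliated epithelium (73.2 ± 46.7 CPM), T and NK cells (40.8 CPM), pericytes (33.2 CPM), mesothelium (25.9 CPM), smooth muscle (9.36 CPM), fibroblasts (5.25 ± 3.14 CPM) and granulosa or luteal cells (5.07 CPM). Every neighbour in that order overlapped the next over libraries except non-ciliated epithelium, whose lowest library stood above the highest of blood endothelium. In proximal tissue the means were 216 CPM in myeloid cells, 188 CPM in ciliated and 177 ± 88.8 CPM in non-ciliated epithelium, 58.7 CPM in blood endothelium, 19.3 CPM in T and NK cells, 16.5 CPM in smooth muscle and 15.6 CPM in fibroblasts. The share of non-ciliated cells with a Ccnd1 UMI was 27.2%, 10.7% and 37.4% in proximal 2, 3 and 4, against 51.3%, 50.3% and 58.0% in distal 1, 2 and 3. With every cell thinned to 1000 UMIs and shallower cells left out, the shares were 14.9%, 4.23% and 14.2% in proximal 2, 3 and 4, against 20.1%, 14.8% and 20.1% in distal 1, 2 and 3, so that proximal 2 and 4 lay close to distal 2. In fibroblasts, 0.798% to 2.13% of cells in proximal libraries and 1.18% to 1.96% in distal libraries held a Ccnd1 UMI, at median depths of 643 to 7026 UMIs and 2618 to 4999.5 UMIs.

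In distal tissue Ccnd2 was highest in pericytes, T and NK cells, smooth muscle, blood endothelium and fibroblasts. In T and NK cells it stood at 415, 726 and 371 CPM in proximal 2, 3 and 4 (the middle value from 7 UMIs), against 489.8, 311 and 368 CPM in distal 1, 2 and 3. Pericytes, which wrap small vessels and were numerous enough only in distal libraries, had 331, 534 and 326 CPM. The distal order of means was pericytes (397 ± 119 CPM), T and NK cells (389.8 ± 91.1 CPM), smooth muscle (238 ± 33.1 CPM), blood endothelium (199 ± 2.02 CPM), fibroblasts (181 ± 17.8 CPM), myeloid cells (120.5 CPM), mesothelium (67.4 CPM), lymphatic endothelium (41.7 CPM), granulosa or luteal cells (32.5 CPM), ciliated epithelium (24.9 ± 9.49 CPM) and non-ciliated epithelium (1.64 ± 0.747 CPM). Neighbours overlapped except at 3 places: T and NK cells stood above smooth muscle, smooth muscle above blood endothelium, and ciliated above non-ciliated epithelium. In proximal tissue the means were 504 CPM in T and NK cells, 349.7 CPM in smooth muscle, 182 CPM in ciliated epithelium, 171 CPM in blood endothelium, 112 CPM in fibroblasts, 68.0 CPM in myeloid cells and 53.2 CPM in non-ciliated epithelium. The 30 B cells are not described further, since no library held 10.

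Ccnd3 was found in every class. It was highest in lymphocytes, at 478, 311 and 371 CPM in proximal 2, 3 and 4, against 235, 532 and 469.9 CPM in distal 1, 2 and 3, with overlapping regions. The distal order of means was T and NK cells (412 ± 157 CPM), pericytes (231 ± 55.7 CPM), fibroblasts (226 ± 33.7 CPM), myeloid cells (220 ± 77.1 CPM), smooth muscle (204 ± 23.4 CPM), ciliated epithelium (198 ± 24.4 CPM), mesothelium (146 CPM), blood endothelium (138 ± 38.6 CPM), non-ciliated epithelium (85.9 ± 20.8 CPM), granulosa or luteal cells (70.8 CPM) and lymphatic endothelium (39.4 CPM). Among these, neighbours did not overlap between ciliated epithelium and mesothelium, between blood endothelium and non-ciliated epithelium, and between granulosa or luteal cells and lymphatic endothelium. In proximal tissue the means were 387 CPM in T and NK cells, 228 CPM in myeloid cells, 182 CPM in smooth muscle, 169 CPM in fibroblasts, 166 CPM in ciliated epithelium, 117 CPM in blood endothelium and 77.8 CPM in non-ciliated epithelium. In both regions non-ciliated epithelium had the lowest Ccnd3 of the 7 classes compared.

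**Figure D1:**
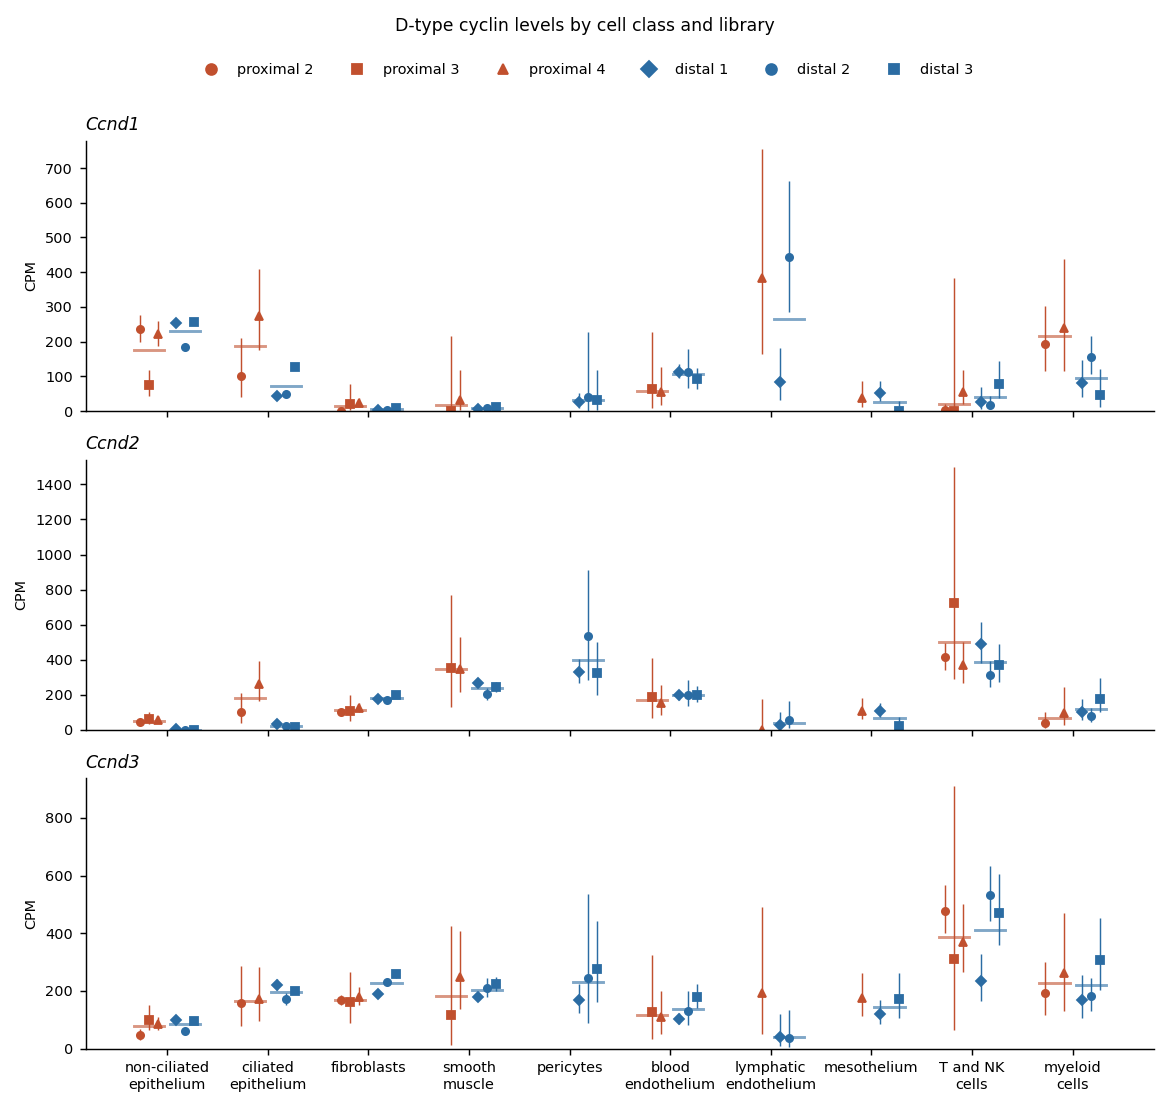
Level of each D-type cyclin (CPM, y axis) in each cell class (x axis), 1 panel per gene; each marker is 1 library with its 95% counting interval, proximal left of distal, and horizontal lines are the means over libraries. Distal non-ciliated Ccnd1 lies at 184 to 257 CPM, distal non-ciliated Ccnd2 lies at 0.863 to 2.35 CPM, and Ccnd3 is present throughout.

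The share of each member among the summed UMIs of the 3 genes describes how the mixture differed between classes. The shares rest on the same 3′ counts, so each gene's share is read from class to class and does not say which of the 3 genes had more transcripts. In non-ciliated epithelium Ccnd1 held a mean of 55% (SD 21.1) of the UMIs in proximal libraries, against 72.7% (SD 1.63) in distal libraries (n = 3 each). The Ccnd2 share there was 13.0%, 25.9% and 15.5% in proximal 2, 3 and 4, against 0.666%, 0.350% and 0.480% in distal 1, 2 and 3. Within distal tissue the Ccnd1 share was lower in ciliated (23.8% ± 11.8) than in non-ciliated epithelium, and the Ccnd3 share was higher, at 67.5% ± 8.16 against 26.8% ± 1.48. Fibroblasts had a small Ccnd1 share (5.05% in proximal and 1.24% in distal libraries), with Ccnd3 at 57.3% ± 4.10 and 54.7% ± 2.84 and Ccnd2 at 37.6% ± 0.705 and 44.1% ± 2.75. The Ccnd2 share was 55.3% in the 1 proximal smooth muscle library with enough UMIs, 52.7% ± 5.81 in distal smooth muscle and 59.7% ± 7.40 in distal pericytes. In blood endothelium the shares of Ccnd1, Ccnd2 and Ccnd3 were 17%, 49.1% and 33.9% in proximal libraries, against 24.0%, 45.1% and 30.9% in distal libraries. The proximal shares rest on only 12 and 29 UMIs of the 3 genes in proximal 3 and 4. The exact interval of the Ccnd1 share in proximal 3 was 2.09% to 48.4%. The Ccnd1 share of lymphatic endothelium was 66.7% in proximal 4, against 54.5% in distal 1 and 82.8% in distal 2, from only 12, 11 and 29 UMIs of the 3 genes.

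**Figure D2:**
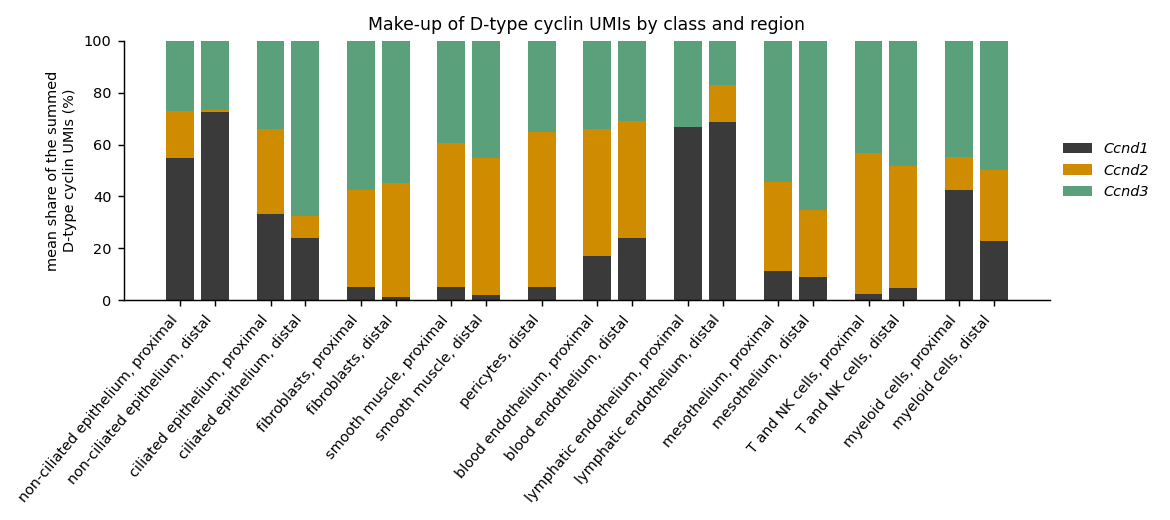
Mean share (%, y axis) of Ccnd1, Ccnd2 and Ccnd3 among their summed UMIs in each class and region (x axis, proximal left of distal), as stacked bars from 0 to 100%. Ccnd1 fills 72.7% of the distal non-ciliated bar and 1.24% of the distal fibroblast bar, and Ccnd2 is visible in the proximal and not in the distal non-ciliated bar.

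Whether the members were detected together in the same cells was read from cells thinned to 1000 UMIs. In fibroblasts of distal 1, 2 and 3, Ccnd2 and Ccnd3 were both found in 56, 71 and 94 cells, where independent detection within the library would give 59.2, 74.3 and 87.1. In non-ciliated epithelium, Ccnd1 and Ccnd3 were both found in 20, 5 and 16 cells, where 24.9, 5.6 and 21.5 would be expected. For these pairs and classes the counts lay near those of independent detection. In ciliated epithelium of distal 1, 2 and 3, Ccnd1 and Ccnd3 were both found in 2, 2 and 2 cells, where 2.23, 0.507 and 6.28 would be expected. No test was made.

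Between regions, the largest log2 fold change of a member was that of Ccnd2 in non-ciliated epithelium. Ccnd2 stood at 42.3 CPM (interval 27.9 to 61.6, 27 UMIs), 61.4 CPM (33.6 to 103, 14 UMIs) and 56.0 CPM (39.2 to 77.5, 36 UMIs) in proximal 2, 3 and 4, against 2.35, 0.863 and 1.71 CPM in distal 1, 2 and 3 (23, 5 and 16 UMIs). All 3 proximal libraries stood above all 3 distal ones, and the log2 fold change of proximal over distal was 4.78 ± 0.42 (standard error of the fit over all genes, edgeR). All proximal libraries stood above all distal ones for 12.8% of the 12963 genes tested in this class; nothing is read from the members' count, since they were chosen with this contrast known. A Ccnd2 UMI was found in 7.14%, 7.14% and 16.8% of non-ciliated cells of proximal 2, 3 and 4, against 0.966%, 0.668% and 1.17% in distal 1, 2 and 3. Median depths were lower in the proximal cells, at 1979, 1928 and 3779 UMIs, against 4863.5, 4758 and 7057 UMIs in distal cells. At 1000 UMIs per cell the shares were 4.26%, 2.82% and 6.67% in proximal 2, 3 and 4, against 0.282%, 0.134% and 0.361% in distal 1, 2 and 3. Ccnd1 (log2 fold change −0.45 ± 0.51) and Ccnd3 (−0.34 ± 0.37) of the same cells overlapped between regions.

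The proximal Ccnd2 sat in a few clusters. Clusters E12 (led by Penk, Serpina1e and Cwh43) and E14 (Serpina1e, 9530014B07Rik, Crabp2 and Fxyd4) held 88, 83 and 82 of the 224, 84 and 131 non-ciliated cells of proximal 2, 3 and 4, and 10, 1 and 0 of the 1450, 749 and 1115 of distal 1, 2 and 3. Inside them Ccnd2 stood at 119 CPM (78.2 to 173), 62.0 CPM (33.9 to 104) and 68.1 CPM (46.9 to 95.7) in proximal 2, 3 and 4, while the 10 cells of distal 1 had 0 UMIs, where 3 counts would be 28.5 CPM. In the other non-ciliated clusters, proximal 2 had 0 Ccnd2 UMIs in 136 cells, where 3 counts would be 7.31 CPM, and proximal 4 had 3 UMIs in 49 cells (18.9 CPM, 3.90 to 55.2), against 2.38, 0.864 and 1.71 CPM in distal 1, 2 and 3. Within proximal 2 the 104 cells of cluster E0 (Upk1a and S100b) held no Ccnd2 UMI at a median depth of 1898.5 UMIs, while 16 of the 86 cells of cluster E14 held one at a median of 1951. With E12 and E14 left out, a choice made after seeing the data, the log2 fold change of Ccnd2 was 1.59 ± 1.30 over 2 proximal libraries. Because few distal cells fall in these clusters, region and cluster cannot be told apart for this gene.

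Markers of fibroblasts and of T and NK cells were low in the proximal non-ciliated cells, relative to their own classes. Markers of the other classes are not given here. The 9 fibroblast markers summed to 0.424%, 0.017% and 0.460% of their level in fibroblasts of proximal 2, 3 and 4, against 0.307%, 0.620% and 0.363% in distal 1, 2 and 3, with 8, 1 and 8 markers detected in the proximal libraries. The 12 T and NK markers summed to 0.227%, 2.12% and 0.50%, against 0.328%, 0.116% and 0.278%, with 2, 1 and 3 detected and Cd3d, Cd3g, Trac, Trbc2 and Cd2 at 0 in the proximal libraries. The value of proximal 3 stood above every distal one and came from 1 marker. Fibroblasts of proximal 2, 3 and 4 held 101, 107 and 127 CPM of Ccnd2, which is of the same order as the level inside E12 and E14. The marker sums are for the whole non-ciliated class, and the part of other cells' transcripts in its Ccnd2 was not tested.

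**Figure D3:**
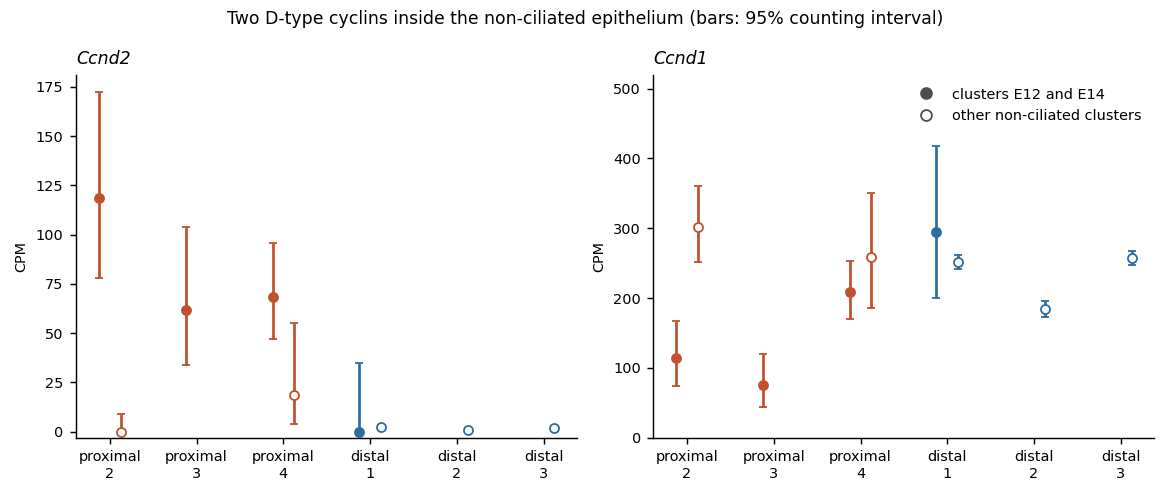
Ccnd2 (left) and Ccnd1 (right) in CPM (y axis) in non-ciliated epithelium of each library (x axis, proximal left of distal), with filled points for clusters E12 and E14 together, open points for all other non-ciliated clusters, and 95% counting intervals. Ccnd2 is at 62.0 to 119 CPM in E12 and E14 of proximal libraries and at most 18.9 CPM in the other clusters, while Ccnd1 is found in both.

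Ccnd1 was lower in E12 and E14 than in the other clusters of proximal 2, and the intervals overlapped in proximal 4. In E12 and E14 it stood at 114 CPM (74.6 to 167), 75.3 CPM (43.8 to 121) and 209 CPM (170 to 253) in proximal 2, 3 and 4, against 294 CPM (200 to 417) in the 10 cells of distal 1. In the other clusters it stood at 302 CPM (251 to 360) in proximal 2 and 258 CPM (185 to 350) in proximal 4, against 252, 184 and 257 CPM in distal 1, 2 and 3. Cluster E12 held 80 of the 84 non-ciliated cells of proximal 3 and 81 of the 82 cells of these clusters in proximal 4, where the level was higher, so the low value was found in proximal 3 and not throughout E12. Cluster E6, led by the secreted-protein genes Dcpp3 and Dcpp1, was the 1 non-ciliated cluster that both regions filled well enough to compare. There Ccnd1 stood at 794 CPM (617 to 1007) in 27 cells of proximal 2 and 608 CPM (314 to 1062) in 13 cells of proximal 4, against 407, 252 and 272 CPM in distal 1, 2 and 3. Both proximal libraries stood above the 3 distal ones, as for 18.8% of the 2347 genes tested in E6, and the log2 fold change within E6 was 1.20 ± 0.33, the opposite direction to the class value.

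Distal non-ciliated clusters differed in Ccnd1 among themselves, pooled over libraries. Cluster E11 (Slc6a2, Col25a1 and Galntl6; 199 cells) had 371 CPM (346 to 398), with 365, 307 and 419 CPM in distal 1, 2 and 3. Cluster E2 (Pde4b, Msln, Rspo1 and Igfbp3; 724 distal cells) had 308 CPM (294 to 324), with 338, 165 and 326 CPM in distal 1, 2 and 3, and cluster E0 (1041 distal cells) had 192 CPM (178 to 206). Ccnd3 was also highest in E11 (171 CPM) and E2 (136 CPM), and lowest in E6 (46.5 CPM) and E0 (41.6 CPM). Ccnd2 stayed at 0 to 3.87 CPM in every distal non-ciliated cluster.

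Ciliated epithelium, the multiciliated cells that move the egg, was sparse in proximal tissue, with 22, 7 and 31 cells in proximal 2, 3 and 4, against 635, 411 and 1131 in distal 1, 2 and 3. Ccnd2 stood at 102 CPM (7 UMIs) in proximal 2 and 263 CPM (23 UMIs) in proximal 4, against 34.9, 24.0 and 16.0 CPM in distal 1, 2 and 3. The regions did not overlap, and the log2 fold change was 2.79 ± 0.51; 13.6% of the 12489 genes tested in this class had all proximal above all distal libraries. The 7 UMIs of proximal 2 came from 2 of its cells. Different clusters held the class in the 2 regions: 20 of 22 ciliated cells of proximal 2 were in E10 (Wfdc12, S100g and Mt3) and 25 of 31 of proximal 4 in E17 (Efhd1, Krt17 and Ly6c1), which had no distal cell. By cluster, E10 had 119 CPM of Ccnd2 (47.8 to 245) in proximal 2, against 0, 30.7 and 0 CPM in distal 1, 2 and 3, and E17 had 236 CPM (142 to 368) over its 32 proximal cells. E17 held epithelial markers at 10251 CPM and ciliated markers at 5999 CPM, and none of the ciliated markers was among its leading 10 genes, so its leading genes go against the class name it was given. Without proximal 4 the log2 fold change was 1.93, from proximal 2 alone.

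Ccnd1 of ciliated cells was 102 and 275 CPM in proximal 2 and 4, against 42.8, 49.8 and 127 CPM in distal 1, 2 and 3, which overlapped (1.22 ± 0.62, and 0.31 without proximal 4). The high distal value goes with cluster E8, of which distal 3 held 183 of 222 cells. E8 had 209 CPM of Ccnd1 (197, 208 and 210.2 in distal 1, 2 and 3), against 7.24 to 24.5 CPM in clusters E1, E4, E5, E7 and E10 of distal tissue. Its cells were deep (median 16542.5 UMIs) and carried epithelial markers at 8648 CPM beside ciliated markers at 6158 CPM; the part of these in the Ccnd1 level was not tested. Without E8, left out after seeing the data, the log2 fold change of Ccnd1 was 3.43 ± 0.63 and that of Ccnd2 2.83 ± 0.53. Ccnd3 of ciliated cells was 159.9 and 172 CPM in proximal 2 and 4, against 221, 173 and 200.1 CPM in distal 1, 2 and 3, with the proximal libraries just below (−0.39 ± 0.41, and 0.18 with thinned distal sums); 29.3% of genes tested had all proximal below all distal libraries.

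Fibroblasts showed the opposite direction for Ccnd2. The stromal cells held 101, 107 and 127 CPM in proximal 2, 3 and 4 (261, 10 and 91 UMIs), against 174, 168 and 202 CPM in distal 1, 2 and 3. All proximal libraries lay below all distal ones (−0.83 ± 0.26), as they did for 10.9% of the 13685 genes tested in fibroblasts. Ccnd3 likewise stood at 168, 161 and 179.9 CPM in proximal 2, 3 and 4, against 191, 229.6 and 258 CPM in distal 1, 2 and 3 (−0.55 ± 0.28). Fibroblast clusters differed in Ccnd2, pooled over libraries. In C1 (Mgp and Clec3b) Ccnd2 was 82.0 CPM (65.7 to 101) in proximal against 140 CPM (131 to 150) in distal cells, and in C10 (Ly6h and Spon1) 85.7 CPM (72.2 to 101) against 145 CPM (128 to 163). In C13 (Apod and Pi16) Ccnd2 was 195 CPM (157 to 238) against 279 CPM (222 to 348), in C6 (Ramp3 and Dscam) 185 against 186 CPM, and in C0 (Htra3) 237 against 205 CPM. Over clusters held by both regions the log2 fold change of Ccnd2 was −0.84 ± 0.27 and of Ccnd3 −0.52 ± 0.29.

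Smooth muscle, which drives tubal contraction, had the highest Ccnd2 of the non-lymphoid classes in proximal tissue. It stood at 353 and 346 CPM in proximal 3 and 4 (6 and 21 UMIs), against 268, 203 and 244 CPM in distal 1, 2 and 3. The CPM did not overlap, as for 22.0% of the 9456 genes tested upward, but the fitted log2 fold change was 0.11 ± 0.41; the fit rescales libraries, and the median over all genes of this class was −0.49. Without proximal 4 it was −0.60, from proximal 3 alone, and with the distal sums thinned to the proximal depth 0.89. Cluster C2 (Actg2, Myh11 and Acta2) held 1667 of 1830 distal smooth muscle cells and C18 (Ctnna3, Pln and Rgs5) held 63 of 74 proximal cells in proximal 3 and 4. Within C18, Ccnd2 was 375 CPM (245 to 550) in proximal and 450 CPM (393 to 514) in distal cells, and C2 had 244 CPM (233 to 255) in distal cells. Ccnd1 was 0 and 33.0 CPM in proximal 3 and 4, against 6.58, 8.60 and 12.9 CPM in distal 1, 2 and 3, and Ccnd3 was 118 and 247 CPM against 178, 210.2 and 224 CPM; both overlapped.

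Blood endothelium, the lining of blood vessels, had Ccnd1 at 63.2 and 54.1 CPM in proximal 3 and 4 (2 and 5 UMIs), against 114, 112 and 91.1 CPM in distal 1, 2 and 3. The counting intervals of proximal 3 and 4 (7.66 to 228 and 17.6 to 126 CPM) covered these distal values. In proximal 3, 3 counts would be 94.8 CPM, so its value lay below that level. The proximal libraries lay below the distal ones (−0.95 ± 0.49), as for 24.9% of the 4049 genes tested. Ccnd2 lay just below too, at 189.6 and 152 CPM against 197, 200.0 and 201 CPM (−0.34 ± 0.31), a difference that vanished with thinned distal sums (−3.26e-05), and Ccnd3 overlapped (−0.31 ± 0.45). Cluster C17 (Selp, Vwf and Sele) held most proximal cells and C14 (Flt1 and Ly6c1) most distal ones. Within C17, Ccnd1 was 61.8 CPM (24.9 to 127) in proximal and 122 CPM (94.7 to 154) in distal cells, intervals that overlap.

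In T and NK cells, Ccnd2 (0.12 ± 0.36) and Ccnd3 (−0.03 ± 0.40) overlapped between regions, and Ccnd1, at 3.54, 0 and 54.2 CPM in proximal 2, 3 and 4 against 26.8, 17.3 and 78.3 CPM in distal 1, 2 and 3, was too sparse to enter the fit. Among the 2795 genes tested in these cells, 8.69% had all proximal libraries above all distal ones and 10.8% had them below. Cluster C19, led by Gzma and Klr receptor genes of cytotoxic cells, had 458 CPM of Ccnd2 in proximal and 508 CPM in distal cells. In myeloid cells, the macrophages and related phagocytes, Ccnd1 stood at 193 and 238 CPM in proximal 2 and 4 (19 and 10 UMIs), against 81.5, 154 and 47.5 CPM in distal 1, 2 and 3. The proximal libraries stood above (1.09 ± 0.51), as for 15.5% of the 2070 genes tested. Within cluster C25 (Cd74 and H2-Aa, antigen presentation), Ccnd1 was 229 CPM (153 to 329) in proximal and 98.8 CPM (64.5 to 145) in distal cells. Ccnd2 of myeloid cells was 40.7 and 95.3 CPM against 104, 79.5 and 178 CPM, and Ccnd3 193 and 262 CPM against 170.4, 181 and 309 CPM; both overlapped.

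**Figure D4:**
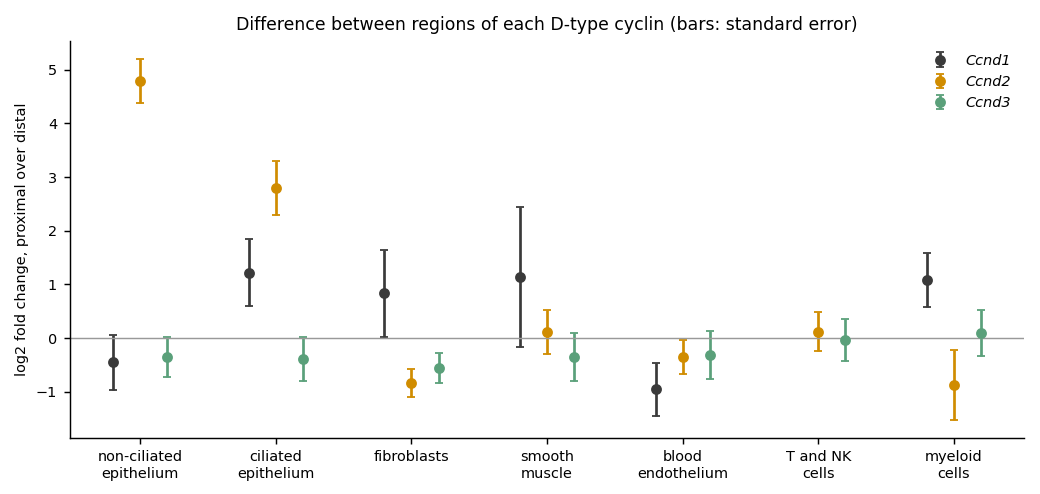
Log2 fold change of proximal over distal (with its standard error) for each D-type cyclin in the 7 classes with at least 2 libraries per region. Ccnd2 is at 4.78 in non-ciliated epithelium and 2.79 in ciliated epithelium and below 0 in fibroblasts, blood endothelium and myeloid cells; Ccnd3 lies between −0.55 and 0.09.

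The partners, inhibitors, targets and regulators of D-type cyclins were tested in the same fits, with Benjamini-Hochberg adjustment over all genes tested in a class at 0.05. Of 65 listed genes, 13 calls were made over the 7 classes, 10 of them in smooth muscle. In non-ciliated epithelium 1 of 47 tested genes was called, where 2.58% of all genes tested were called higher and 1.01% lower (3.59% in all): Pgr, the progesterone receptor, rose to 59.6, 127 and 112 CPM in proximal 2, 3 and 4, against 27.1, 23.6 and 30.1 CPM in distal 1, 2 and 3 (log2 fold change 1.68 ± 0.35, adjusted p = 0.0295, edgeR). Over 15 refits the log2 fold change of Pgr ran from 0.57 to 2.00, and its call did not hold in all of them. With 1 library left out it was 1.53 to 1.82. As for Ccnd2, the regions fill different non-ciliated clusters, so region and cluster are mixed in this call. The median of the listed genes was 0.01, and that of all genes −0.09. Cdk6, a catalytic partner, had 18.8, 13.2 and 45.1 CPM against 87.7, 51.1 and 115 CPM and missed the threshold (−1.77 ± 0.48, edgeR adjusted p = 0.0723). Cdkn1c, the CIP/KIP inhibitor p57, also missed it, with 65.8, 17.6 and 49.8 CPM against 14.3, 14.3 and 11.3 CPM (1.74 ± 0.47, edgeR adjusted p = 0.0704). The main kinase partner Cdk4 (−0.53 ± 0.57), the inhibitors Cdkn2a (−1.62), Cdkn2b (−1.49), Cdkn2c (0.30), Cdkn1a (−0.02) and Cdkn1b (0.06), and the target Rb1 (0.03 ± 0.53) were not called either.

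In ciliated epithelium 0 of 49 listed genes were called; edgeR called 2 genes in all (0.016% of those tested) with 1969 at an unadjusted p under 0.05, and DESeq2 called 352 higher and 175 lower. Cdkn1c was again higher in proximal cells without passing the threshold, at 87.2 and 57.2 CPM in proximal 2 and 4 against 6.34, 2.46 and 6.42 CPM in distal 1, 2 and 3 (3.57 ± 0.68, edgeR adjusted p = 0.0651). In this class the median log2 fold change of all genes was −0.31 with the scaling used and −0.20 with DESeq2's size factors, and changes are read relative to that shift. In fibroblasts 1 of 52 listed genes was called, where 1.99% of all genes were called higher and 0.877% lower (2.87% in all): Cdkn2b, which encodes the INK4 inhibitor p15, fell to 1 UMI over the proximal libraries, against 31, 44 and 24 UMIs in distal 1, 2 and 3, a ratio of 0.0779 (counting interval 0.00195 to 0.444; edgeR adjusted p = 0.0478). Cdk4 (−0.48), Cdk6 (−0.60) and Cdkn1a (−0.77) were not called there.

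Smooth muscle had 6 listed genes higher and 4 lower of 38 tested, where 4.61% of all genes were called higher and 8.07% lower (12.7% in all), with a median of 0.04 against −0.49. Cdkn1a, the CIP/KIP inhibitor p21, rose to 765 and 775 CPM in proximal 3 and 4, against 99.9, 82.4 and 118 CPM in distal 1, 2 and 3 (log2 fold change 2.49 ± 0.34). Cdk6 rose to 294 and 115 CPM (5 and 7 UMIs), against 21.2, 11.1 and 19.4 CPM (2.68 ± 0.61, edgeR adjusted p = 0.0003). The growth-response factor Egr1 (1.62 ± 0.35), the deubiquitinase Usp2 (1.66 ± 0.42), the F-box protein Fbxo31 (2.30 ± 0.58) and the nucleotide-synthesis gene Rrm1 (2.43 ± 0.62) also rose. Cdk4 was called lower, at 177 and 16.5 CPM (3 and 1 UMIs), against 143, 225 and 190 CPM (−2.20 ± 0.66, edgeR adjusted p = 0.0107). In CPM, proximal 3 lay within the distal range, so only proximal 4 was lower, from 1 UMI. The steroid receptors Esr1 (−1.43 ± 0.41) and Pgr (−1.82 ± 0.53) fell, and Cdkn2c had 0 UMIs in proximal and 335 in distal libraries, at least 1.13-fold lower against 3 counts over the group. Within cluster C18, which both regions held, none of these was called by edgeR, and Esr1 (0.17), Usp2 (−0.069) and Cdk6 (−0.54) changed direction; 1227 genes could be tested there. In blood endothelium 1 of 16 tested genes was called, where 3.8% of all genes were called higher and 4.72% lower (8.52% in all): Cdk2, the kinase of the next step of the cycle, rose to 94.8 and 119 CPM in proximal 3 and 4 (3 and 11 UMIs), against 26.6, 12.5 and 28.0 CPM in distal 1, 2 and 3 (2.10 ± 0.51, edgeR adjusted p = 0.0280). None of 17 listed genes in T and NK cells and none of 10 in myeloid cells was called by edgeR, where 0.608% of all genes were called higher and 0.394% lower in T and NK cells (1.0% in all) and 0 of 2070 in myeloid cells; in myeloid cells 274 genes had an unadjusted p under 0.05 and DESeq2 called 31. The 13 calls rest on few libraries: refits called 25, 4 and 0 listed genes without proximal 2, 3 and 4, and 8, 10 and 11 without distal 1, 2 and 3. Whether these were the same genes was not counted.

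Within 1 class, the members were set against the cell cycle itself, a contrast their choice did not use. Cells were called cycling by at least 2 UMIs over at least 2 of 22 G2/M genes, none of them a member, and none in the lists below, which marked 67 of 8034 fibroblasts: 4, 2 and 1 in proximal 2, 3 and 4, and 11, 29 and 20 in distal 1, 2 and 3. The test used the 3 distal libraries, each with its cycling and its other fibroblasts, and a term for the library. Ccnd2 fell in cycling fibroblasts, to 56.7 CPM (11.7 to 166, 3 UMIs), 56.0 CPM (29.8 to 95.8, 13 UMIs) and 126 CPM (60.4 to 232, 10 UMIs) in distal 1, 2 and 3, against 175, 170.2 and 203 CPM in the other fibroblasts. Each library had less Ccnd2 in its cycling cells, and the log2 fold change was −1.48 ± 0.29 (adjusted p = 2.98e-05, edgeR, n = 3 libraries), where 1.96% of 12571 genes were called lower and 2.24% higher. The number of genes called lower was 246 here but 13 with DESeq2, 40 with no term for the library, 86 against cells of the same clusters and 76 without distal 3, while 230, 224, 225 and 216 were called higher; Ccnd2 was called lower under each of these 4. Without distal 2 the call was lost (−1.25, adjusted p = 0.0742, edgeR). Cycling cells were deeper, with medians of 4231, 7916 and 3690 UMIs against 3229, 4987 and 2616 UMIs. The call held against other cells of like depth (−1.38, adjusted p = 0.000366, edgeR) and against other cells of the same clusters (−1.32, adjusted p = 0.00662, edgeR), the last chosen after seeing the data. In proximal 2, which did not enter, 4 cycling fibroblasts had 145 CPM (58.4 to 299, 7 UMIs), against 100.3 CPM in 372 others, so this library did not show the difference.

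Ccnd3 stood at 189, 254 and 239 CPM in cycling fibroblasts of distal 1, 2 and 3, against 191, 229 and 258 CPM in the others, and was not called (−0.16 ± 0.22, adjusted p = 0.859, edgeR). Ccnd1 rested on 1 UMI in cycling cells (−0.85 ± 1.62, adjusted p = 0.909, edgeR). Of the 65 listed genes, 17 of 58 tested rose and 2 fell in cycling cells, with a median of 0.29 against −0.22 for all genes (−0.12 with DESeq2's size factors, which called 311 genes higher and 159 lower, where the scaling used called 281 and 246). Since the cells were chosen by G2/M transcripts, a rise of genes of S phase and mitosis goes with that choice and is no separate result. Those that rose included 4 of 5 later cyclins and kinases, among them Ccna2 (8.66) and Cdk1 (6.77), which drive S phase and mitosis, and 9 of 13 S-phase genes, among them Uhrf1 (5.64), Rrm2 (5.44) and Mcm5 (3.83). The E2F factors E2f7 (5.60) and E2f1 (3.04) rose, as 2 of 8. Of the INK4 inhibitors of Cdk4 and Cdk6, Cdkn2c (p18; 2.57 ± 0.25, adjusted p = 2.56e-22, edgeR) and Cdkn2d (p19; 2.43 ± 0.32, adjusted p = 2.83e-12, edgeR) rose, as 2 of 3. Cdkn1c (−1.03 ± 0.33, adjusted p = 0.0430, edgeR) and the regulator Stat3 (−0.68 ± 0.21, adjusted p = 0.0290, edgeR) fell. Cdk4 (0.54 ± 0.21), Cdk6 (−0.33), Rb1 (−1.31 ± 0.56), Cdkn1a (−0.07) and Cdkn1b (−0.99) were not called, nor was any of the 8 turnover genes.

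**Figure D5:**
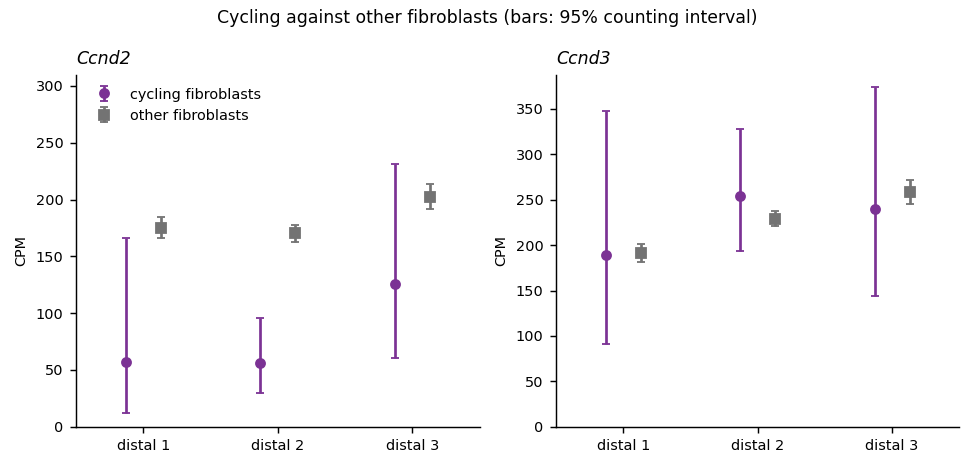
Ccnd2 and Ccnd3 (CPM, y axis) in cycling and other fibroblasts of distal 1, 2 and 3 (x axis), each point with its 95% counting interval. Ccnd2 lies at 56.7, 56.0 and 126 CPM in cycling cells and at 175, 170.2 and 203 CPM in the others, while the Ccnd3 intervals of cycling and other cells overlap in each library.

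Other classes had too few cycling cells per library for a test and are given pooled over all libraries. In T and NK cells the 18 cycling cells had 204 CPM of Ccnd2 (114 to 336) and 177 CPM of Ccnd3 (94.0 to 302), against 409 and 459 CPM in the others, and 149 CPM of Ccnd1 (74.6 to 267) against 16.7 CPM. Of these 18 cells, 12 came from proximal 4, so state and library are mixed in these values. In smooth muscle the 22 cycling cells had 160 CPM of Ccnd2 (108 to 228) against 260 CPM. In non-ciliated epithelium the 41 cycling cells had 378 CPM of Ccnd1 (332 to 429) against 233 CPM, at median depths of 14156 against 5186 UMIs. In ciliated epithelium the 40 cells called cycling had 226 CPM of Ccnd1 (191 to 267) against 84.3 CPM, at median depths of 15216 against 2271 UMIs. Of these 40 cells, 24 came from distal 3, which held 183 of the 222 cells of the deep cluster E8 (209 CPM of Ccnd1). State, library and cluster are therefore mixed in this value. The part of depth was not tested in either epithelium.

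The genes whose pattern was most like each member were found by Pearson correlation of log2(CPM + 5) over 43 sums of a library and class (11 classes, at least 20 cells each, 8488 genes). The sums of a library share its depth and those of a class its cell type, so the values are descriptions. For Ccnd1 they were Tpd52 (0.82), Ceacam1 (0.75), Tspan14 (0.74), Dazap2 (0.72) and Cd24a (0.72). For Ccnd2 they were Tsc22d3 (0.75), Sik1 (0.74), Slc38a2 (0.74), Nr4a2 (0.72) and Atp2b4 (0.72), and for Ccnd3 Ankrd44 (0.77), Nr4a3 (0.73), Adgre5 (0.73), Chsy1 (0.70) and Ust (0.68). Among the members themselves the correlation was 0.59 for Ccnd2 and Ccnd3, −0.51 for Ccnd1 and Ccnd2 and −0.31 for Ccnd1 and Ccnd3.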

How the data were processed

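Distal and proximal tube sections, pooled over mice of a group, were dissociated and captured, per the labels' protocols, with the 10x Single Cell 3′ v2 chemistry. The authors deposited raw UMI counts per gene and barcode for each library, not normalized. Cell Ranger 6.1.2 and mm39 are given per the submitters' processing notes, and Cell Ranger 7.0.0 per the file headers. Printed sequences and their coordinates come from GRCm38, not from the counting build. The members and lists were chosen with earlier results of these data known.

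From the counts, barcodes under 500 UMIs or 250 genes, or over 20% mitochondrial UMIs, were dropped. Doublets were removed at 0.8% per 1000 barcodes, scored against simulated doublets. The 18466 cells left were clustered without the members or listed genes (leidenalg 0.10.2, 2000 variable genes, 30 components, 20 for epithelium, 15 neighbours, Leiden resolution 1). A class was the marker list with the highest mean score, at least 1.5 with 3 markers detected. Counts were summed per library and class (at least 10 cells) and fitted with edgeR 4.0.16 (quasi-likelihood, TMM scaling, filterByExpr with a minimum count of 10) in R 4.3.3, proximal over distal with no block; DESeq2 1.42.0 was an alternative. In all, 20 of 21 combinations of member and class passed the filter. The scripts were tested on simulated data. Libraries pool mice, so p-values measure the spread between libraries, which may be technical. The rule named the members, the kinases, Rb1 and CDK inhibitors, other listed genes past the threshold (the 8 of smallest p where more) and the 5 genes most alike. A first definition of cycling cells, 3 UMIs, left no class with 3 libraries of 10 cycling cells, so a second one of 2 UMIs was used, with the library as a block.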

Additional observations from a re-analysis of the deposited data

Results flagged for a closer look

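The direction of the region difference of a member was opposite between some classes, with every proximal library on 1 side of every distal library in each class. The direction is weak for Ccnd2 in smooth muscle, where the log2 fold change turned to −0.60 without proximal 4, and in blood endothelium, where it was −3.26e-05 with thinned distal sums. These differences were not tested, and the members were chosen with them known. The log2 fold change of Ccnd2 in non-ciliated epithelium exceeded that in fibroblasts by 5.62 and that in blood endothelium by 5.13. The log2 fold change of Ccnd2 in ciliated epithelium exceeded those of the same classes by 3.63 and 3.14, and the log2 fold change in smooth muscle exceeded those of the same classes by 0.94 and 0.45. The log2 fold change of Ccnd1 in myeloid cells exceeded that in blood endothelium by 2.04. This direction is weak too, since Ccnd1 of blood endothelium came from 2 and 5 UMIs in proximal 3 and 4. Their counting intervals (7.66 to 228 and 17.6 to 126 CPM) cover the 91.1 to 114 CPM of the distal libraries.

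The 828 cells of clusters with no class name, which enter no comparison, also held D-type cyclin UMIs above the 1.35 CPM that 3 counts allow: 258 CPM of Ccnd1 (574 UMIs), 9.43 CPM of Ccnd2 (21 UMIs) and 63.3 CPM of Ccnd3 (141 UMIs).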

How the results depend on the processing

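Of 257 recomputed region differences of the members, 227 moved by less than the SD between libraries, as did 163 of 180 class levels; of 130 recomputed pathway gene calls 87 kept their call, 39 lost it and 4 reversed, of 208 in cycling cells 174, 32 and 2, and 67 of 116 counts stayed within 1.5 times. Replicate numbers in titles and descriptions disagree and pair only 2 libraries each way. Same-numbered libraries correlated in their deviations (Pearson) at 0.54 and 0.30 (titles) and 0.38 (the other description pair) in non-ciliated epithelium and at 0.36, 0.12 and 0.04 in fibroblasts. Pairs alike in neither number ran from −0.52 to 0.12 in non-ciliated epithelium and from −0.22 to 0.15 in fibroblasts, which overlaps the range of the numbered pairs in fibroblasts. With the block by title or description number the log2 fold change of Ccnd2 in non-ciliated epithelium was 5.20 and 5.13, with thinned distal sums 4.55, without E12 and E14 1.59, and with 1 library left out 4.60 to 5.16. Ccnd1 there was 1.20 over clusters held by both regions. Ccnd2 in ciliated epithelium ran from 1.93 to 3.19 with 1 library left out. Smooth muscle pathway calls (10) became 0 over clusters held by both regions, 4 with thinned distal sums and 0 to 9 with 1 library left out, and all pathway calls (13) became 6 with thinned distal sums and 0 to 25. Reversed in smooth muscle were Esr1 (0.17), Usp2 (−0.069) and Cdk6 (−0.54) over clusters held by both regions, where 1227 genes could be tested, and Fbxo31 ran from −8.48 to 2.64 with 1 library left out. In cycling fibroblasts Ccnd2 ran from −1.78 to −1.25, Ccnd1 from −7.62 to 0.028, and to 0.94 with doublet calls kept. Genes called there (527) became 243 with DESeq2 (13 of them lower), 264 with no replicate block, 311 against cells of the same clusters and 192 to 412 with 1 library left out. Distal 2 alone decides the call of Ccnd2 there, and leaving out proximal 4 leaves ciliated epithelium, smooth muscle, blood endothelium and myeloid cells with 1 proximal library, assumed to vary like the others. The other causes were not tested. Proximal values of muscle, endothelium and ciliated cells rest on few UMIs, which limits them to large differences.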
